A study of Homo sapiens with 13 samples.

Results

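Isolated Ishikawa FOXA1 sites are stretches of chromatin called as FOXA1 peaks, with no other called peak nearby. They were selected on peak positions, as the autosomal Ishikawa peaks whose centre had no other Ishikawa centre within 100 kb on either side. The rule found 1451 members among the 52874 autosomal peaks, a share of 2.74% (95% Wilson interval 2.61% to 2.89%), in a list of 54855 peaks in all. Chromatin bound by FOXA1 was pulled down with an antibody and sequenced (ChIP-seq) from cross-linked Ishikawa and Hec1A cells, which are established human endometrial cancer cell lines. The labels name no treatment and no genetic change. The Ishikawa list was called on 6 pooled FOXA1 ChIP libraries against 2 pooled inputs, and the Hec1A list on 3 pooled FOXA1 ChIP libraries. Input is chromatin sequenced without immunoprecipitation. Each line has 1 pooled list, so no value below has a replicate error, and the intervals given cover the counting of peaks alone.

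FOXA1 is a forkhead transcription factor that binds its motif in DNA wrapped on nucleosomes and helps to open chromatin for other factors. It is called a pioneer factor for this reason, and in hormone-responsive tissues such as breast and endometrium it is known for its cooperation with steroid receptors. Most FOXA1 sites in the genome lie away from promoters, often several to a regulatory region.

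The list of Ishikawa peaks was dense, and isolated sites formed the far tail of its spacing. The median distance from a peak to its nearest neighbour was 14.8 kb among the other 51423 autosomal peaks and 134 kb among the isolated peaks. Among the isolated peaks the lower quartile was 113 kb and the upper quartile 185 kb. The nearest neighbour lay over 200 kb away for 309 members, over 500 kb away for 41 and over 1 Mb away for 5. These distances chose the members and carry no test.

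**Figure D1:**
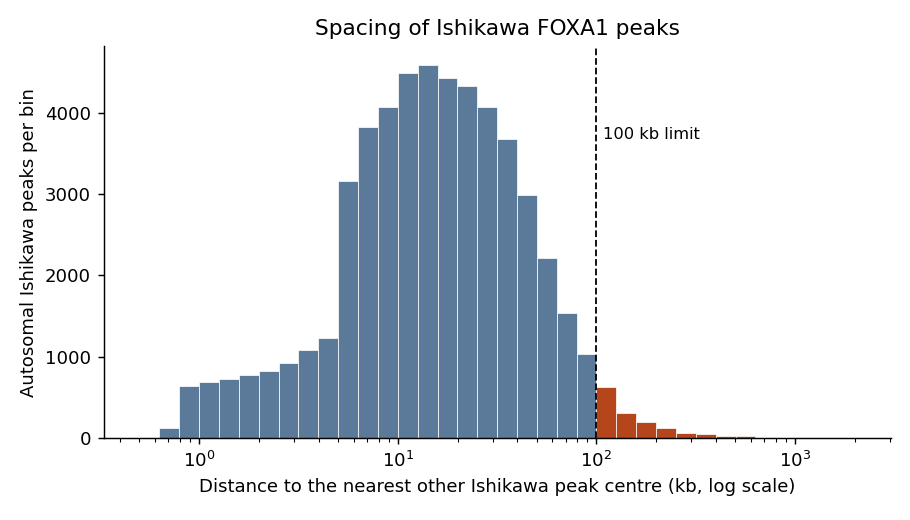
Number of autosomal Ishikawa peaks (vertical axis) by distance to the nearest other Ishikawa centre (horizontal axis, kb, log scale, bins of equal width on that scale). Bars right of the dashed line at 100 kb are the isolated peaks; the counts fall smoothly across the line, and a step from 1230 to 3155 peaks lies near 5 kb.

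The limit of 100 kb cut through a continuous distribution. Just over it stood 2 neighbouring peaks on chromosome 7, at 122769176 to 122769528 and 122869208 to 122869560, which lay 100.032 kb apart and had scores of 298 and 116. The next was at chromosome 13, 104292748 to 104293100, with a score of 224 and a nearest distance of 100.035 kb. Just under it were peaks at chromosome 20, 9719633 to 9719985 (99.996 kb, score 234), chromosome 8, 65042329 to 65042681 (99.973 kb, score 183) and chromosome 15, 36370281 to 36370633 (99.906 kb, score 89). None of these 6 peaks overlapped a Hec1A peak, and their scores did not separate the sides. The step near 5 kb in the plot of spacing lies at the edge of the 10000 bp region over which, per the file headers, each peak was compared with its surroundings. Isolated peaks have no neighbour in that region, so their fold over it is not lowered by a second peak.

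Isolation in this sense did not mean an empty megabase. Within 1 Mb on either side, an isolated peak had a median of 28 other Ishikawa peaks, from 0 to 78, where the other peaks had a median of 45. Members also followed one another along the chromosome. The rule favours this, because the peak next to a member already has a gap of over 100 kb on that side. In all, 767 of the 1451 had another isolated peak as their next neighbour, and 684 stood between peaks that were not isolated. The longest series held 7 consecutive members each, on chromosome 20 with centres from 6329590 to 7756048, on chromosome 8 from 138270600 to 140353373, and on chromosome 5 from 159846172 to 161495674. The median peak-free span around a member, from one neighbour to the other, was 365 kb.

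Isolated sites were weaker than the other Ishikawa sites in tags, and nearly alike in contrast to their surroundings. The findPeaks score, which is a tag number, had a median of 221 in isolated peaks (quartiles 152 and 374, range 88 to 5397) and 323 in the other peaks (quartiles 210 and 559, range 88 to 11549), a ratio of 0.684. The signal, in tags per 10000000 tags, had medians of 6.92 and 9.92, a ratio of 0.698. The fold over input differed less, with medians of 6.86 and 7.80. The fold over the local region was 6.81 and 6.92, a ratio of 0.984.

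Lower background went with the lower tag numbers. The local background, computed as signal divided by fold over the local region, had a median of 1.05 tags per 10000000 at isolated peaks and 1.37 at the others. Pooled input tags per peak averaged 4.46 and 5.48, and the mean was lower at isolated peaks on each of the 22 autosomes. The median score was likewise lower on each of the 22 autosomes. The part of background, and of how well reads map in these regions, in the lower scores was not tested. All of these measures come from the list that chose the members and are descriptions.

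Most members were of low score, but strong ones existed. The lowest of 10 equal groups of autosomal peaks by score held 329 of the 1451 members (22.7%), and the lowest 3 groups held 756 (52.1%). The highest group, with scores of at least 1099, held 73 members (5.03%). Counted from the groups, 6.22% of the weakest peaks and 1.38% of the strongest were isolated. A total of 581 members (40.0%) reached a fold over input of 8, compared with 48.6% of the other peaks.

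At 3 members the score was 88, which is the tag threshold the authors' caller set for Ishikawa. They lay on chromosome 20 at 53368734 to 53369086, on chromosome 8 at 34406640 to 34406992 and on chromosome 9 at 70709472 to 70709824. The last had a signal of 2.53 and a local fold of 264. Its input stood at 0.5 tags, which is the floor of that value and so the lowest in the list. A high fold at an isolated site thus did not always come with many tags.

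Isolated peaks were slightly more focused. The focus ratio is the fraction of a peak's tags that surround its centre on the strand a single binding point would give, and a high value marks a narrow, single point of binding. Its median was 0.841 in isolated peaks (quartiles 0.781 and 0.891, range 0.530 to 0.996) and 0.828 in the others (0.765 and 0.882). A ratio of at least 0.9 was found in 309 members (21.3%) and in 18.1% of the others. The ratio rises with score, and isolated peaks had the higher median in each of the 10 score groups. The gap was 0.003 in the lowest group, with medians of 0.811 and 0.808, and was larger in the highest, with 0.946 and 0.913.

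**Figure D2:**
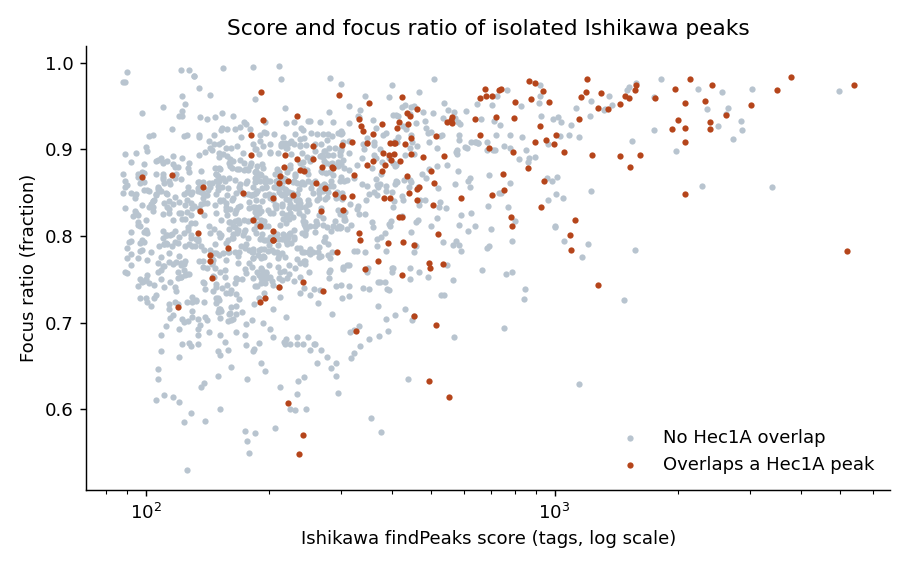
Focus ratio (vertical axis, fraction) against findPeaks score (horizontal axis, tags, log scale) for the 1451 isolated peaks, 1 point per peak. Orange points are the 193 members that overlap a Hec1A peak; they lie more to the upper right, with a median score of 445 and a median focus ratio of 0.889, while grey points have medians of 207 and 0.834.

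Tags of isolated peaks were also more often stacked on few positions. The clonal fold compares the expected unique tag positions with those observed, and values above 1 mark repeated positions. It exceeded 1 in 517 members (35.6%) and in 24.8% of the other peaks, with medians of 0.93 and 0.90. At like score the order was not the same throughout. The isolated median was the higher in 7 of the 10 score groups and the lower in the 3 groups of lowest score, which hold 52.1% of the members (1.35 and 1.46, 0.97 and 0.99, 0.93 and 0.94).

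Isolated peaks were spread over all 22 autosomes, at unlike shares. Chromosome 16 had the highest share, with 64 of its 1155 peaks isolated (5.54%, 95% Wilson interval 4.36% to 7.01%), followed by chromosome 20 with 50 of 1035 (4.83%, 3.68% to 6.31%) and chromosome 22 with 27 of 655 (4.12%, 2.85% to 5.93%). The lowest share was on chromosome 19, with 19 of 1270 (1.50%, 0.960% to 2.32%), and next came chromosome 4 with 75 of 4017 (1.87%, 1.49% to 2.33%). The intervals of chromosomes 16 and 20 do not meet those of chromosomes 19, 4 and 12. They also lie above those of chromosomes 1, 2, 3, 6, 7, 9, 13, 14 and 17, while most neighbours in the order overlap. Over the span from its first to its last peak, chromosome 16 had 12.8 peaks per Mb and chromosome 19 had 21.6. The shares did not follow this density throughout. Chromosome 22 had 19.4 peaks per Mb at its high share, and chromosome 9 had 16.3 at a share of 2.66%. In numbers, chromosome 2 held the most members, 136, and chromosome 19 the fewest.

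**Figure D3:**
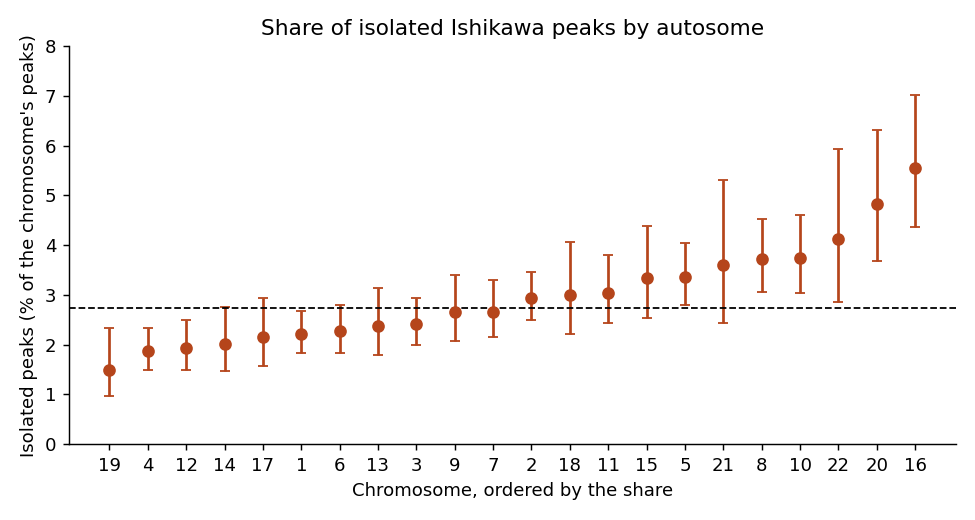
Isolated peaks as a percentage of each autosome's Ishikawa peaks (vertical axis), with autosomes ordered by that share (horizontal axis); bars are 95% Wilson intervals and the dashed line is the share over all autosomes, 2.74%. Chromosome 16 stands highest at 5.54% and chromosome 19 lowest at 1.50%.

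Some members border long stretches without any peak. A gap of over 1 Mb on at least 1 side was found for 70 members on 18 chromosomes. Their median score was 162.5, compared with 223 for the other 1381 members, and their median clonal fold was 1.005, compared with 0.93. Beside the longest peak-free interval of a chromosome lay 25 members on 16 chromosomes, with a median score of 207 and a median focus ratio of 0.865. These 25 had a median fold of 8.62 over input and 9.07 over the local region, and 4 of them (16.0%, 6.40% to 34.7%) overlapped a Hec1A peak.

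The members farthest from any other site lay at such intervals. The peak at chromosome 9, 66520278 to 66520630, had its neighbours 22391 kb and 1935 kb away, a score of 191 and a fold over input of 4.01, just over the required 4. The peak at chromosome 11, 51201151 to 51201503, had neighbours 1893 kb and 4509 kb away and a score of 115, and its clonal fold was 1.51. On chromosome 21 the first peak of the list, at 9863353 to 9863705, and the second, at 11066305 to 11066657, lay 1203 kb apart. The second of them carried 21 input tags, the most of any member, and its fold over input was 4.51 at a signal of 24.5. None of these 4 overlapped a Hec1A peak, and the 4 folds over input lay between 4.01 and 5.49, below the members' median of 6.86.

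The Hec1A list took no part in choosing the members and gives a second, separate reading of them. Overlap, meaning that an Ishikawa and a Hec1A interval have 1 bp or more in common, was found for 193 of the 1451 isolated peaks, or 13.3% (95% Wilson interval 11.7% to 15.1%). Over all autosomal Ishikawa peaks the share was 12.8%, and among the other peaks it was 6598 of 51423, or 12.8% (12.5% to 13.1%). The difference was 0.470 percentage points, with a 95% Newcombe interval of -1.21 to 2.34, so it did not exceed counting error. Along the scale of spacing sharing differed little, with a low point from 30 to 100 kb. The interval there, 11.4% to 12.5%, lay below those from 3 to 10 kb (12.6% to 13.7%) and from 10 to 30 kb (12.6% to 13.5%). It was 13.4% for peaks with a neighbour within 3 kb, 13.2% from 3 to 10 kb, 13.0% from 10 to 30 kb, 11.9% from 30 to 100 kb, 13.2% from 100 to 200 kb and 13.6% beyond 200 kb, where the interval was 10.2% to 17.9%. The isolated share was above that of the other peaks on 12 autosomes and below it on 10.

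The centres of shared peaks nearly coincided. The centres of the 193 pairs lay a median of 15 bp apart, with an upper quartile of 41 bp and a maximum of 279 bp, and 153 pairs were within 50 bp. The fixed peak widths bound this distance for any overlapping pair. Only 3 members had a Hec1A centre within 1 kb without overlap. The other pairs had a median of 14 bp.

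Sharing of isolated peaks rose with their Ishikawa score. In the highest score group 38 of 73 members (52.1%, 95% Wilson interval 40.8% to 63.1%) overlapped a Hec1A peak, and in the lowest group 9 of 329 (2.74%, 1.45% to 5.12%). It rose with focus as well. Of members with a focus ratio of at least 0.9, 83 of 309 (26.9%, 22.2% to 32.1%) had a Hec1A partner, compared with 76 of 662 (11.5%, 9.27% to 14.1%) from 0.8 to 0.9 and 34 of 480 (7.08%, 5.11% to 9.74%) below 0.8. The other peaks had similar shares of 28.0%, 11.2% and 7.44%. Of members with a clonal fold above 1, 29 of 517 were shared (5.61%, 3.93% to 7.94%), and of those at 1 or less 164 of 934 (17.6%, 15.3% to 20.1%). The other peaks showed the same order, with 3.99% and 15.7%.

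At the same Ishikawa score, isolated peaks overlapped a Hec1A peak more often than other peaks. The isolated share was higher in 9 of the 10 score groups, and in 5 of them the intervals did not meet. In the highest group it was 52.1% and 38.6%, in the seventh 29.2% (31 of 106) and 14.3%, and in the sixth 24.7% (20 of 81) and 9.99%. In the second group the order was turned, with 2.20% and 2.91%. With the other peaks' shares in each score group, 123.5 isolated peaks would have had a partner, or 8.51%, and 193 did. The Mantel-Haenszel common odds ratio over the 10 groups was 1.78 (95% interval 1.51 to 2.11). On 19 of 22 autosomes the number of shared members was above that at like score, and on 3 it was below. The expected numbers used the other peaks' shares by score group over all autosomes, not those of the same chromosome. Sharing of the other peaks ran from 9.30% on chromosome 13 to 25.1% on chromosome 19. Some of the excesses were small, such as 7 against 6.17 on chromosome 9.

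**Figure D4:**
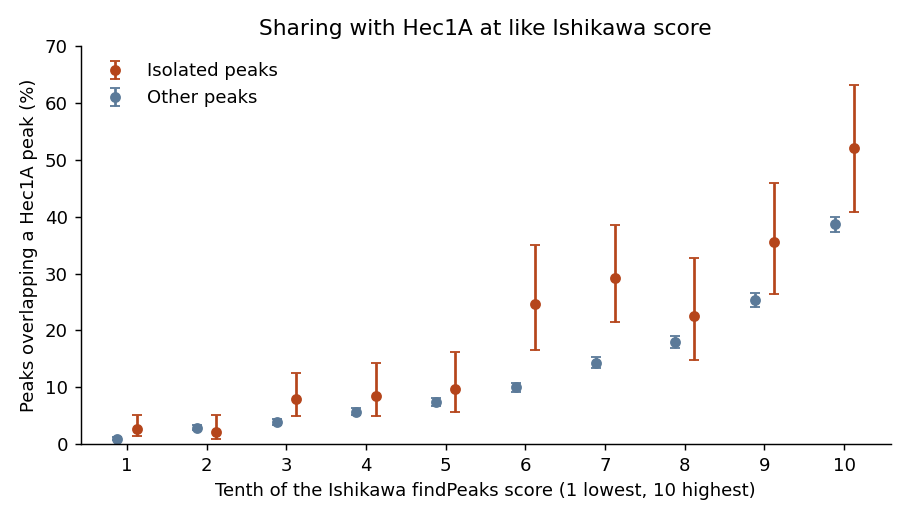
Percentage of Ishikawa peaks that overlap a Hec1A peak (vertical axis) in 10 equal groups by findPeaks score (horizontal axis, lowest to highest), for isolated peaks in orange and other peaks in blue; bars are 95% Wilson intervals. The orange points lie above the blue ones in all groups except the second, and reach 52.1% and 38.6% in the highest.

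This difference depended on how strength was measured. Grouped by signal the common odds ratio was 1.69 (95% interval 1.43 to 2.00). Grouped by fold over input it was 1.18 (1.005 to 1.38), and by fold over the local region it was 1.06 (0.897 to 1.25), where 185.0 partners would have been found at the other peaks' shares. In each of the 10 score groups the isolated peaks had the lower median local background, for example 1.60 and 2.17 tags per 10000000 in the highest group. At like fold over the local region a difference in sharing was not detectable, since the interval of 0.897 to 1.25 includes 1. The part of local background in this was not tested. That fold is itself lower where a second peak lies inside the region, with a median of 5.89 for peaks with a neighbour within 3 kb. Against the 33342 other peaks with no neighbour within 10 kb, a comparison added after the data were seen, the odds ratio was 1.13 (0.958 to 1.34) by fold over the local region and 1.69 (1.42 to 2.00) by score. With only peaks of a local fold of 8 or more kept, as members and as neighbours, the odds ratio by score was 1.09 (0.997 to 1.19).

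**Figure D5:**
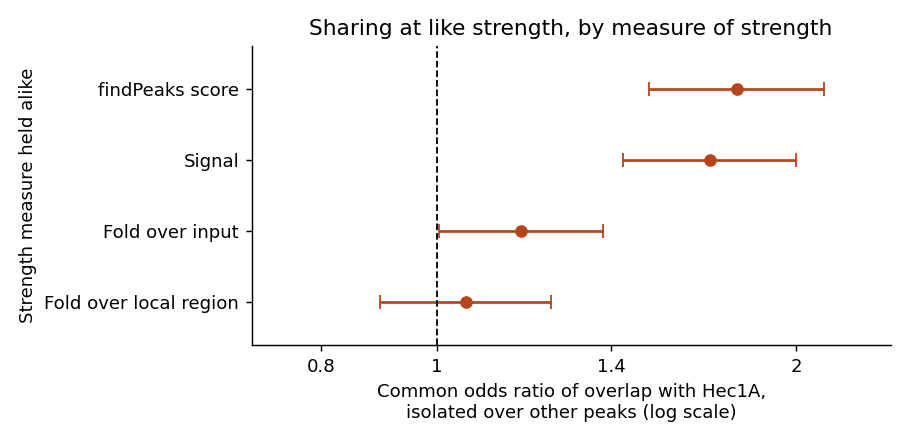
Mantel-Haenszel common odds ratio of overlap with a Hec1A peak, isolated over other Ishikawa peaks (horizontal axis, log scale), with 95% intervals as bars, for each strength measure used to form 10 groups (vertical axis). It falls from 1.78 at like findPeaks score to 1.06 at like fold over the local region, where the bar crosses the dashed line at 1.

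The shared members of highest score differed in shape. The member of highest score, at chromosome 2, 238200110 to 238200462, had an Ishikawa score of 5397, a signal of 192.8 and a fold over input of 124. Its Hec1A partner at 238200166 to 238200420 had a signal of 68.8 and a focus ratio of 0.984, but a clonal fold of 1.65, which marks repeated positions. The member at chromosome 16, 22900163 to 22900515, stood 237 kb from its nearest Ishikawa neighbour and had a local fold of 121 in Ishikawa and 26.6 in Hec1A. Its partner was also alone in Hec1A, with the next Hec1A peak 191 kb away.

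The second highest score, 5203, was at chromosome 5, 42812100 to 42812452. Its focus ratio of 0.783 lay near the members' lower quartile, and that of its Hec1A partner was 0.801, below the median of 0.823 over autosomal Hec1A peaks. At chromosome 5, 145061238 to 145061590, the Hec1A partner had a signal of 32.6 and a score above 98.1% of the Hec1A list. The remaining members of this set lay on chromosome 1 at 221915547 to 221915899 and on chromosome 10 at 119478476 to 119478828. Their Ishikawa signals were 89.6 and 79.0, and their Hec1A signals 11.7 and 9.58. The percentile of the 6 partners in the Hec1A list by score ranged from 86.6 to 98.1, and their centres lay 4 to 33 bp from the Ishikawa centres.

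Other isolated members of similar strength had no overlapping Hec1A peak. At chromosome 5, 117690932 to 117691284, the signal was 191.3, close to that of the strongest shared member, and input was exceeded 247 times. The closest Hec1A centre lay 44.5 kb away. At chromosome 9, 81871559 to 81871911, the signal was 106.0 with a fold over input of 205 on 2 input tags. At chromosome 16, 80574737 to 80575089, the gap to the left was 940 kb in Ishikawa, the focus ratio was 0.970, and the nearest Hec1A centre was 466 kb away. The remaining sites were at chromosome 14, 76278245 to 76278597, chromosome 15, 96596388 to 96596740, and chromosome 3, 187359116 to 187359468, with scores from 2735 to 2875. The fold over input of these 6 ranged from 28.7 to 247, which overlaps the range of 51.0 to 124 in the 6 shared members. Hec1A tags at these places were not analysed here, so a weak Hec1A signal under that list's threshold cannot be told apart from no signal.

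The Hec1A partners of isolated peaks were similar in strength to the partners of other peaks. Their median Hec1A score was 64 (quartiles 46 and 111, range 32 to 1878), compared with 74 (51 and 121) for partners of other Ishikawa peaks and 58 over all autosomal Hec1A peaks. The median fold over the local region was 6.61 and 6.40, and the median focus ratio 0.850 and 0.833. A total of 64 of the 193 partners (33.2%, 95% Wilson interval 26.9% to 40.1%) belonged to the highest 25% of the Hec1A list by score, compared with 35.8% (34.6% to 36.9%) of the partners of other peaks. The intervals overlap.

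Hec1A peaks were fewer around isolated Ishikawa peaks, in part because of the rule. A Hec1A peak that overlaps another Ishikawa peak can hardly lie within 100 kb of a member. Around the other peaks no such bar applies. How much of the differences below the rule sets was not tested. A Hec1A centre lay within 100 kb of 521 isolated peaks (35.9%, 95% Wilson interval 33.5% to 38.4%), compared with 63.5% over all autosomal Ishikawa peaks. Among peaks without overlap the shares were 328 of 1258 (26.1%) and 26459 of 44825 (59.0%), a difference of -33.0 percentage points (95% Newcombe interval -35.3 to -30.4). For these 1258 unshared members the nearest Hec1A centre was a median of 183 kb away (quartiles 94.4 kb and 355 kb, highest 2.10 Mb), and for the other unshared peaks 74.0 kb. A total of 930 members (64.1%) had no peak of either list within 100 kb other than themselves.

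Partners of isolated peaks were also more often alone in the Hec1A list. Of the 193 Hec1A partners, 132 (68.4%, 95% Wilson interval 61.5% to 74.5%) also had no other Hec1A centre within 100 kb. Among partners of the other Ishikawa peaks this was so for 1808 of 6598 (27.4%, 26.3% to 28.5%), a difference of 41.0 percentage points (95% Newcombe interval 34.0 to 47.2). Over all autosomal Hec1A peaks the share was 28.8%. The rule sets some of the difference between these partners too. A further Hec1A peak within 100 kb of a member's partner can hardly overlap an Ishikawa peak other than the member. Partners of the other peaks have no such bar, and how much this adds was not tested. The part of read mapping and of regional tag levels, which both lists share or carry, in this agreement of spacing was not tested.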

How the data were processed

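FOXA1 ChIP-seq was analysed from 2 deposited peak lists, 1 per cell line, which pool 6 Ishikawa and 3 Hec1A ChIP libraries (343739762 and 143055568 tags). The pools mix TruSeq and ThruPLEX libraries. The submitters' processing notes name Bowtie 1.1.2, SAMtools 1.3.1, HOMER 4.7.2 and hg19. Per the file headers, peaks of 353 bp (Ishikawa) and 254 bp (Hec1A) passed a tag threshold of 88 or 32, a local fold of 4 and a clonality limit of 2. A fold of 4 over input was required in Ishikawa, and the recorded Hec1A call names no input. The series does hold 2 Hec1A input libraries, and the name of the Hec1A list cites them, so name and recorded call differ.

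The deposited signal is tags per 10000000, the deposited score is a tag number, the deposited focus ratio is a fraction, and the deposited folds are ratios. The deposited p-values were not used. These values are the authors' own and rank or describe peaks within a list.

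Distances, overlaps, Wilson and Newcombe intervals and Mantel-Haenszel odds ratios were computed with Python 3.11.15 and pandas 2.3.3, and the steps were tested on simulated lists. Values per library were not analysed here, so no replicate test was possible. Named sites are the 6 of highest score with and without a Hec1A peak, the 4 farthest from another centre, the 3 on each side of the limit and the 3 of lowest score. The members, the rule for named sites and the alternatives were chosen with earlier results of these data known. Gene positions and sequences of hg19 were not used here, and planned gene and motif analyses were not run.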

Additional observations from a re-analysis of the deposited data

How the results depend on the processing

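Of 62 alternatives, 48 left the result as reported. This meant a count or strength ratio within 1.5 times, a share or difference within the reported 95% interval whatever its sign, an odds ratio whose interval stayed above 1, or a higher focus ratio. The number of isolated peaks was 6269 at a limit of 50 kb, 309 at 200 kb, 3216 with only peaks of a fold over input of at least 8 and 3576 at a local fold of at least 8, which follows from the limits themselves. Their share with a Hec1A peak was 11.5%, 13.6%, 17.9% and 23.0% in that order. It was 11.0% with Hec1A peaks of a clonal fold of 1 or less and 4.96% with Hec1A peaks of a local fold of at least 8, which shorten the Hec1A list. The difference from other peaks, 0.470 as reported, was below 0 in 6 of 11 alternatives. It was -1.56 percentage points at 50 kb (95% interval -2.38 to -0.693) and -1.37 at a local fold of at least 8 (-2.87 to 0.172), and from -1.04 to -0.00937 with input exceeded by a fold of 8 or more, with Ishikawa or Hec1A peaks of a clonal fold of 1 or less and with centres within 1 kb. The interval excluded 0 at 50 kb alone, and the cause was not tested. The common odds ratio stayed above 1 in 16 alternatives, but its interval reached 1 with groups by local fold (1.06, or 1.13 against other peaks with no neighbour within 10 kb) and with peaks of a local fold of at least 8 (1.09). It was 1.20 at 50 kb and 2.64 at 200 kb. The ratio of median strength was 0.698 by signal, 0.879 by fold over input and 0.984 by fold over the local region, in place of 0.684 by score. All 10 alternatives for this ratio counted as unchanged, the near-equal 0.984 among them. The limit of 1.5 times also admits equal strength, so this count does not bear on whether isolated peaks were weaker. The isolated median focus ratio was higher in each of 7 alternatives, by 0.005 to 0.017. Groups by local fold or signal, other peaks with no neighbour within 10 kb, the list without chromosomes 3, 5, 12 and 17, and Ishikawa peaks of a clonal fold of 1 or less were chosen after seeing the data. No paired analysis was possible because both lists come from pooled libraries, and leaving out a library could not be done. Motif windows were not run.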

Other observations

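Some stretches of the genome held more isolated peaks than others. Of 293 windows of 10 Mb with an autosomal Ishikawa peak, 278 held at least 1 member, with a median of 5. The window from 130 to 140 Mb on chromosome 8 held 19 members among 93 peaks (20.4%), of which 4 overlapped a Hec1A peak. The window from 160 to 170 Mb on chromosome 5 held 18 among only 54 peaks (33.3%), of which 1 did. The windows next in count had lower shares, with 13 members among 124 peaks (10.5%) from 80 to 90 Mb on chromosome 10. From 0 to 10 Mb on chromosome 20 there were 13 among 183 (7.10%). These windows were picked from the counts themselves, and whether the counts vary more than such a rule would give was not tested.

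A pair of members on chromosome 17 were far stronger in Hec1A than their Ishikawa values would place them. They were chosen after their values were seen, as the shared members with the highest Hec1A scores. At 67758173 to 67758525 the Ishikawa score was 274, above 41.1% of autosomal peaks, with a signal of 8.32 and a local fold of 7.23. Its Hec1A partner, at 67758202 to 67758456, had a score of 1878, above 99.9% of the Hec1A list, a signal of 160.1, a local fold of 68.9 and a clonal fold of 0.64. At 5736172 to 5736524 the Ishikawa signal was 6.84 and the focus ratio 0.570, while the Hec1A partner had a signal of 60.0 and a focus ratio of 0.966.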
